A study of Mus musculus with 115 samples.

Results

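The mammary fat pads compared here are the 38 with the highest and the 38 with the lowest expression of Top2a among 115 fat pads, so 76 of 115 pads enter the comparison and 39 pads with middle values do not. Top2a encodes DNA topoisomerase II alpha, the enzyme that untangles chromosomes before they separate. Pads were chosen by the deposited value of Top2a itself, read by its probe set with the highest mean over all arrays, and the upper group of this ranking is called Top2a-high and the lower group Top2a-low. All 115 mice were untreated females aged 8 weeks from a backcross. Their parents were, on one side, FVB/N, a laboratory strain, and on the other side crosses of FVB/N with Spret/Ei, a strain of Mus spretus. The mice therefore differ from each other in which loci carry a Mus spretus allele, and both groups share the same cross, sex, age, diet of chow and lack of treatment. One Affymetrix array was hybridised per mouse, and each mouse is a separate animal. The labels also place each mouse on 1 of 2 array plates and in 1 of 3 lymph clusters, whose definition they do not give. The Top2a-high pads lay 30 on plate 1 and 8 on plate 2, with 13, 22 and 3 in lymph clusters 1, 2 and 3. The Top2a-low pads lay 32 on plate 1 and 6 on plate 2, with 18, 16 and 4 in the clusters.

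A dividing cell copies its DNA in S phase and separates the copies in mitosis, and genes for the proteins of each step are transcribed mainly in that step. Their transcripts in a whole tissue therefore reflect cells in cycle, whichever cell type they belong to. The mammary fat pad holds a branching epithelium of luminal and basal cells, surrounded by adipocytes, blood and lymphatic vessels, fibroblasts, macrophages and usually a lymph node, and in a young virgin female the epithelium is still growing with each oestrous cycle. The question was which cell type's genes go with Top2a from pad to pad.

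Genes of late cell cycle share short promoter sequences. The CCAAT box is bound by the factor NF-Y, the cell cycle homology region (TTTGAA) by the DREAM and MuvB complexes, and the E2F site by E2F factors that act at the start of S phase. The promoters of 6 genes, Top2a itself and others that rose with it, are given because they display these elements at different densities. Each is shown as the 150 bases before the annotated transcription start, 5′ to 3′. They were taken from RefSeq, assembly GRCm38.p6, a reference made from another laboratory strain and not from these mice. Capitals mark, on either strand, the CCAAT box by the letters CCAAT, the cell cycle homology region by the letters TTTGAA, and the E2F site by TTTCGCGC, as well as its other forms TTTGGCGC as searched here and TTTCCCGC. Top2a lies at chr11:99024190-99024339 on the minus strand, Mki67 at chr7:135716380-135716529 on the minus strand, Cdk1 at chr10:69352913-69353062 on the minus strand, Ccnb2 at chr9:70421555-70421704 on the minus strand, Kif11 at chr19:37376232-37376381 on the plus strand and Hells at chr19:38930840-38930989 on the plus strand.
Top2a: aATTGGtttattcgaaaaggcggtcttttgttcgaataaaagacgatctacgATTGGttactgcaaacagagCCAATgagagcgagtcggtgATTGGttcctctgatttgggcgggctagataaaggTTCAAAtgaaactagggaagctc
Mki67: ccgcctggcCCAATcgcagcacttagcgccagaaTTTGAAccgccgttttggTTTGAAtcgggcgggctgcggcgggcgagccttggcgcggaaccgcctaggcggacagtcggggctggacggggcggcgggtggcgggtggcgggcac
Cdk1: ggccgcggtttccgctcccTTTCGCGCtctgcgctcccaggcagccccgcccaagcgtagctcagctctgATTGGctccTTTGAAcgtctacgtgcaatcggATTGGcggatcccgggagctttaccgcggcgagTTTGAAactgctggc
Ccnb2: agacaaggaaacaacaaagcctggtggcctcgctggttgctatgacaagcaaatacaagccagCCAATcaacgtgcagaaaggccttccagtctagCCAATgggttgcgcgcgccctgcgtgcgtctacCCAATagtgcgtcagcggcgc
Kif11: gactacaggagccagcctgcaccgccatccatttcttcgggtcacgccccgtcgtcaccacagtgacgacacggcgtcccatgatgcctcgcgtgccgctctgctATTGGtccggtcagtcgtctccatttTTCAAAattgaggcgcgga
Hells: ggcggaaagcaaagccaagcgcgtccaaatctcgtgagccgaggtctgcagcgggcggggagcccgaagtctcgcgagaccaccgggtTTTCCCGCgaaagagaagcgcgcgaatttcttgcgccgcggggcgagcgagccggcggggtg

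The Top2a stretch held 4 CCAAT boxes and 1 cell cycle homology region, and that of Ccnb2 held 3 CCAAT boxes. Mki67 had 1 CCAAT box and 2 cell cycle homology regions, and Cdk1 had 2 of each with 1 E2F site. Hells, a chromatin remodeller of S phase, had 1 E2F site and neither of the other elements. In the 250 bases before the start, CCAAT stood in 22 of the 31 mitosis genes with a promoter in RefSeq (71.0%), in 15 of 23 replication genes (65.2%), and in 34.5% of all 27025 promoters. TTTGAA was found in 25.8% of the mitosis promoters and in 16.3% of all promoters. Any of the E2F sequences stood in 7 of the 23 replication promoters (30.4%) and in 1.6% of all promoters. CCAAT was present in 4 of 17 promoters of luminal epithelium genes (23.5%) and 5 of 15 of white adipocyte genes (33.3%). A match to these letters is a description of the reference sequence and not evidence of binding, and the short CCAAT and TTTGAA can match by composition alone.

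The values that chose the pads are given here as a description only. Top2a ranged from 7.35 to 9.29 in the Top2a-high pads with a median of 7.71, from 6.75 to 7.35 in the middle pads with a median of 7.02, and from 5.62 to 6.71 in the Top2a-low pads with a median of 6.28, all on the log2 scale of the deposited values. The mean was 7.91 ± 0.55 (SD, n = 38) in the high pads and 6.28 ± 0.28 (SD, n = 38) in the low pads, 1.62 apart. There was no gap at the borders. The last pad inside the high group stood at 7.350 and the first outside at 7.346, while the last middle pad stood at 6.746 and the first low pad at 6.712. Of the other Top2a probe sets, 2 were dim, with means of 3.37 and 3.63 over all pads, and they differed by -0.06 and 0.27 between the groups.

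Mki67, which encodes the Ki-67 protein of the surface of mitotic chromosomes, followed the same order without having been used for the ranking. It ranged from 7.39 to 9.45 (median 7.95) in the high pads and from 5.89 to 7.55 (median 6.76) in the low pads. In 36 of 38 high pads Mki67 exceeded every low pad. Ranking the pads by Mki67 instead placed 33 of the 38 highest and 31 of the 38 lowest in the same groups. The label of proliferative pads was thus borne out by its second marker. Whether the low pads were quiescent cannot be read from these values, since a log2 array value has no zero level to compare with, and the lower group is called by its Top2a rank.

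**Figure D1:**
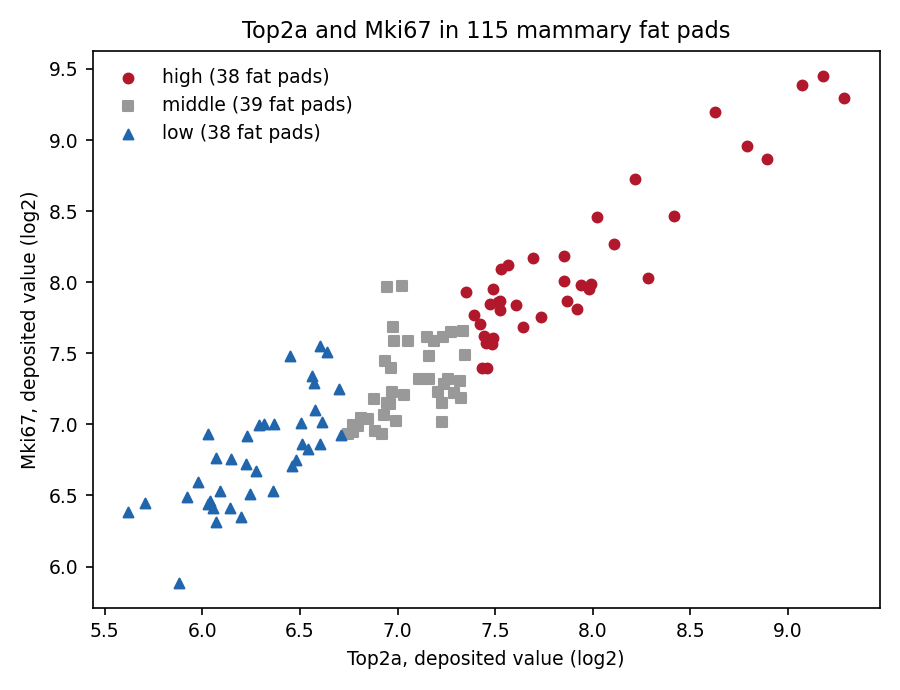
Deposited log2 values of Top2a (horizontal axis) and Mki67 (vertical axis) in each of 115 fat pads, coloured by Top2a group. The groups are cut from a continuous range at 7.35 and 6.71, and Mki67 rises along it from 5.89 to 9.45.

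The array values were even across pads, since array medians spanned 6.16 to 6.45 and any pair of arrays correlated at 0.928 to 0.992. The labelled tissue was borne out by its markers, since the mean of the white adipocyte list was 10.62 or above in every pad and Epcam, an epithelial adhesion protein, ranged from 6.26 to 10.91 over both groups. Transcripts of skeletal muscle fibres were present in some pads, and the mean of 18 muscle genes exceeded 9 in 5 high and 12 low pads. On plate 2 this was 0 of 8 high against 5 of 6 low pads, while on plate 1 it was 5 of 30 against 7 of 32. Of the arrays that enter the comparison, 3 stood apart with a median correlation to the others under 0.96, and all 3 had muscle means between 11.33 and 12.52. 

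Across 18771 genes, 2533 (13.5%) were higher and 1952 (10.4%) lower in the Top2a-high pads at a limma adjusted p under 0.05, with array plate and lymph cluster as covariates. Over all 28201 probe sets tested the calls were 3440 higher (12.2%) and 2681 lower (9.51%), so 56.2% of the calls were higher. After each array was centred on its median this share was 46.2%, which means that the balance of rises and falls depended on the scaling. The median log2 difference over all genes was -0.008. Since the groups were made from a measured gene, each call says that a gene varied with Top2a among these mice and not that a treatment changed it. Without the 3 arrays that stood apart, 2460 genes were higher (13.1%) and 2111 lower (11.2%). Counts of list members are to be read against the 13.5% and 10.4% of all genes.

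Cell cycle genes describe the choice of pads and support nothing beyond it. All 35 measured members of the mitosis list and all 28 of the replication list were called higher, with median log2 differences of 0.93 and 0.53. Cdk1, the kinase that starts mitosis, ranged from 7.34 to 9.87 in the high pads (median 8.11) and from 6.33 to 7.78 in the low pads (median 7.21). Ccna2, the cyclin of S phase and G2, ranged from 7.07 to 9.85 (median 8.12) against 5.89 to 7.81 (median 6.67), a difference of 1.49 (SE 0.134). The spindle motor Kif11 differed by 1.37 (SE 0.113), the mitotic cyclin Ccnb2 by 1.26 (SE 0.108) and the centromere motor Cenpe by 1.19 (SE 0.103), and every high pad exceeded the low median for each. Among replication genes, Rrm2, a subunit of the enzyme that makes deoxynucleotides, differed by 1.21 (SE 0.106), Mcm6 of the replicative helicase by 1.16 (SE 0.121) and Hells by 1.07. The genes with the smallest p outside both lists were of the same kind, among them the kinetochore protein Knl1 (1.19), the condensin subunits Smc2 (0.78) and Ncapg (1.23), the spindle motor Kif15 (1.03), the replication kinase activator Dbf4 (0.89), the chromatin protein Hmgb2 (1.08) and the nuclear lamina protein Lmnb1 (0.82). In Kif15, 37 of 38 high pads lay above every low pad.

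Genes around the entry into S phase and its repair rose as well, by smaller amounts. Of 17 G1 cyclin and E2F genes, 14 rose and none fell, with a median of 0.25. Ccnd1, the cyclin that carries growth signals into the cycle, ranged from 8.63 to 10.52 (median 9.36) in the high pads and from 8.16 to 9.59 (median 8.73) in the low pads, a difference of 0.70 (SE 0.094, limma adjusted p = 1.85e-08). The groups overlapped, but 36 of 38 high pads exceeded the low median. E2f8, a repressor that is itself made in S phase, rose by 0.69 (SE 0.092) and the G1 kinase Cdk6 by 0.43 (SE 0.062). Of 14 DNA repair genes 12 rose, including the recombination factor Brca1 (0.64) and the checkpoint kinase Chek1 (0.90), both with every high pad above the low median. Cell cycle brakes did not follow as a group: of 19, 1 rose and 2 fell, and the median was 0.01. The pocket protein Rbl1 rose by 0.45 (SE 0.066), while the kinase inhibitors Cdkn2c and Cdkn1a fell by 0.40 (SE 0.087) and 0.40 (SE 0.140). Of 11 p53 targets 1 rose and 1 fell, and of 11 immediate early genes 1 rose.

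**Figure D2:**
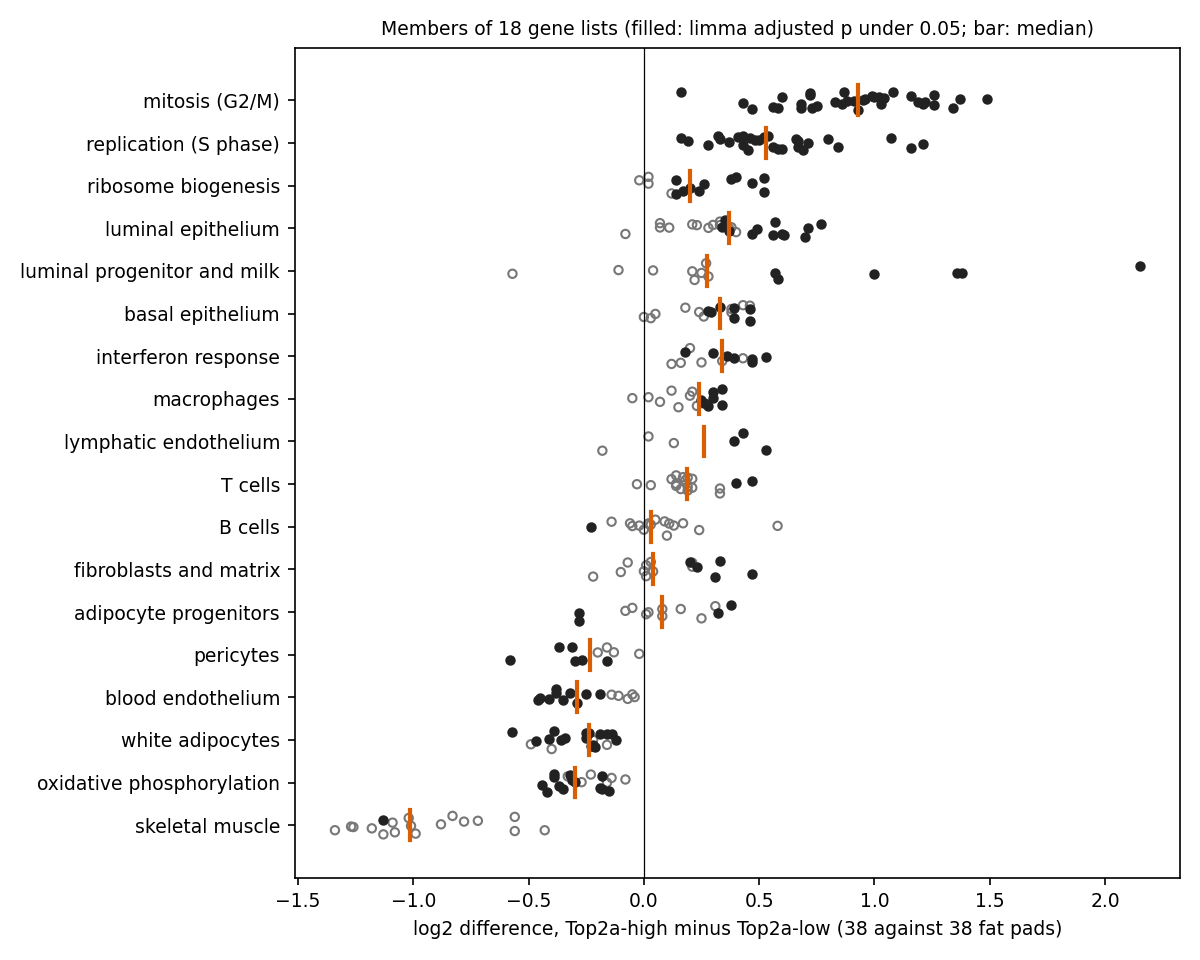
Fitted log2 difference between 38 Top2a-high and 38 Top2a-low pads (horizontal axis) for each measured member of 18 gene lists. Filled points have a limma adjusted p under 0.05, open points do not, and the bar is the list median, from 0.93 for mitosis to -1.01 for skeletal muscle.

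Transcripts for ribosome assembly were higher in the Top2a-high pads. Of 15 ribosome biogenesis genes 11 rose and none fell, with a median of 0.20. The list mean ranged from 8.27 to 8.96 (median 8.52) in the high pads and from 8.02 to 8.50 (median 8.33) in the low pads, and 21 of 38 high pads lay above every low pad. On plate 2 alone none of the 15 was called (median 0.11). Npm1, a chaperone of ribosome assembly in the nucleolus, ranged from 10.80 to 11.84 (median 11.47) in the high pads and from 10.20 to 11.58 (median 10.94) in the low pads. It rose by 0.52 (SE 0.062, limma adjusted p = 6.87e-10), beyond the low median in 34 of 38 high pads. Ncl, the nucleolar protein nucleolin, rose by 0.38 (SE 0.046), and Nop58 and Gar1, which guide the modification of ribosomal RNA, by 0.52 (SE 0.067) and 0.47 (SE 0.067).

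Genes of both epithelial layers rose. In the luminal epithelium list 12 of 25 members rose and none fell, with a median of 0.37. Rab25, a trafficking protein of epithelial cells, ranged from 6.76 to 9.38 (median 8.12) in the high pads and from 6.28 to 8.63 (median 7.51) in the low pads. The ranges overlapped widely, with 31 of 38 high pads above the low median, and the difference was 0.61 (SE 0.145, limma adjusted p = 0.0010). Epcam rose by 0.71 (SE 0.179), the splicing regulator Esrp1 by 0.70 (SE 0.186) and the transcription factor Ehf by 0.77 (SE 0.220). The basal list, which holds genes of the contractile and basement membrane layer, had 7 of 17 members higher and a median of 0.33. Its members with the smallest p were the laminin chain Lamb3 (0.39, SE 0.090), the P-cadherin gene Cdh3 (0.39, SE 0.106), the smooth muscle actin gene Acta2 (0.28, SE 0.082) and the collagen Col17a1 (0.29, SE 0.096). The basal calls varied with the fit, from 12 of 17 with the B and T cell mean as covariate to 1 with the luminal mean and 0 with the white adipocyte mean. Within plate 1 there were 8 and within plate 2 there was 1 (median 0.04). Lymph clusters 1 and 2 alone gave 0 and 3, and ranking the pads by Mki67 gave 4.

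Milk protein genes, which are made by secretory luminal cells, had a wide spread. Csn1s1 had the largest single difference among called genes, leaving out the kinds of gene excluded under the processing below. Csn1s1, an alpha casein, ranged from 3.71 to 12.70 (median 8.18) in the high pads and from 3.61 to 11.38 (median 5.54) in the low pads. The difference was 2.15 (SE 0.529, limma adjusted p = 0.0017), yet both groups held pads at the bottom and near the top of the range, and 31 of 38 high pads exceeded the low median. Csn2, the beta casein, rose by 1.36 (SE 0.430) and Csn1s2a by 1.38 (SE 0.493). Of 14 genes in the luminal progenitor and milk list 6 rose and none fell, among them the secreted Wfdc18 (1.00, SE 0.289) and Lcn2 (0.58, SE 0.199). Gjb2, the gap junction protein connexin 26, which is made in the secreting gland, rose by 1.25 (SE 0.280), from a median of 5.44 to one of 6.23.

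Hormone-sensing luminal cells carry the oestrogen and progesterone receptors and pass the signal to their neighbours. Their list did not rise as a whole, with 1 of 10 members higher, 1 lower and a median of 0.12. The member that rose was Tnfsf11, the RANKL cytokine through which progesterone drives epithelial division. It ranged from 6.42 to 9.36 (median 7.28) in the high pads and from 6.04 to 7.68 (median 6.66) in the low pads, a difference of 0.71 (SE 0.147, limma adjusted p = 1.74e-04), with 11 high pads above every low pad. Tnfsf11 is also made by lymphoid cells. Esr1, the oestrogen receptor, fell by 0.17 (SE 0.059), and it is also expressed in stromal cells of the fat pad. Of 17 growth factors and receptors 2 rose, the neuregulin Nrg1 by 0.25 (SE 0.053) and the binding protein Igfbp2 by 0.46 (SE 0.110).

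Fat genes moved the other way. Of 21 white adipocyte genes 17 fell and none rose, with a median of -0.24. The list mean ranged from 10.74 to 12.13 (median 11.49) in the high pads and from 11.05 to 12.08 (median 11.80) in the low pads, and 4 of 38 high pads exceeded the low median. Slc2a4, the insulin-responsive glucose transporter GLUT4, ranged from 8.93 to 10.97 (median 9.89) against 9.22 to 11.04 (median 10.43) and fell by 0.57 (SE 0.091, limma adjusted p = 1.67e-06). The lipid droplet protein Plin4 fell by 0.39 (SE 0.081), the glycerol channel Aqp7 by 0.47 (SE 0.101) and the adipogenic factor Cebpa by 0.34 (SE 0.074). In a bulk sample, fewer cells of a type and less of its RNA per cell cannot be told apart, and the same holds for every list below.

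Metabolic gene lists fell as well. In the lipid synthesis list 7 of 18 members fell and 1 rose, with a median of -0.17. Mlxipl, the carbohydrate response factor ChREBP, ranged from 7.80 to 9.75 (median 8.78) in the high pads and from 8.54 to 9.96 (median 9.15) in the low pads and fell by 0.50 (SE 0.083), with 12 high pads below every low pad. The phosphatidate phosphatase Lpin1 fell by 0.40 (SE 0.085). Of 19 oxidative phosphorylation subunits 13 fell and none rose, with a median of -0.30, and Cyc1 of complex III fell by 0.44 (SE 0.085) and Ndufs3 of complex I by 0.37 (SE 0.074). Brown adipocyte genes had 6 of 11 members lower and a median of -0.47, led by the mitochondrial regulator Ppargc1a (-0.62, SE 0.138). Some of that list, such as Cox7a1 (-0.84, SE 0.264) and Cox8b (-0.74, SE 0.196), are also expressed in muscle. The list of genes that follow fat expansion had 3 of 9 members lower, the receptor Fzd4 (-0.39), the imprinted Nnat (-0.67) and the imprinted Peg3 (-0.28).

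Blood vessel genes fell, while some lymphatic genes rose. Of 15 blood endothelium genes 10 fell and none rose, with a median of -0.29, and of 10 pericyte genes 6 fell with a median of -0.23. Kdr, the VEGF receptor 2, ranged from 7.67 to 9.33 (median 8.43) in the high pads and from 8.23 to 9.53 (median 8.87) in the low pads, and 12 high pads lay below every low pad. It fell by 0.45 (SE 0.082, limma adjusted p = 2.38e-05), Flt1, the VEGF receptor 1, by 0.38 (SE 0.072) and the pericyte channel subunit Abcc9 by 0.37 (SE 0.077). Of 6 lymphatic endothelium genes 3 rose and none fell. They were Pdpn (0.39, SE 0.074), Reln (0.53, SE 0.126) and Lyve1 (0.43, SE 0.143), of which podoplanin is also made by basal epithelium and fibroblasts and LYVE1 by some macrophages. Flt4, the lymphatic VEGF receptor 3, differed by -0.18 and did not pass (limma adjusted p = 0.137). Within plate 2 and within lymph cluster 1, none of the 6 lymphatic and none of the 15 blood endothelium genes was called.

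Among immune lists, that of macrophages had the most calls. Of 16 macrophage genes 7 rose and none fell, with a median of 0.24. Fewer were called in parts of the data: 2 of 16 within plate 1, where 11.8% of all genes were higher, none within plate 2 or within lymph cluster 1 or 2, and 5 without the 3 arrays that stood apart. C1qc, a chain of complement C1q, ranged from 7.78 to 9.71 (median 9.02) in the high pads and from 7.02 to 9.67 (median 8.72) in the low pads, and 33 of 38 high pads exceeded the low median. It rose by 0.34 (SE 0.098, limma adjusted p = 0.0078), the integrin Itgam by 0.30 (SE 0.093) and the antibody receptor Fcgr1 by 0.28 (SE 0.085). Cd9, a list member that epithelial cells also express, rose by 0.34 (SE 0.096). Mast cell genes had 2 of 8 members higher, the proteases Mcpt4 (0.54, SE 0.173) and Cpa3 (0.56, SE 0.184).

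Of 17 B cell genes none rose and 1 fell, with a median of 0.03, and the mean of the list ranged from 6.81 to 8.78 in the high pads and from 6.62 to 9.38 in the low pads. The member that fell was Ebf1 (-0.23, SE 0.063), which is also a factor of adipocyte precursors. Of 18 T cell genes 2 rose with a list median of 0.18, namely Thy1 (0.40, SE 0.083), which fibroblasts also carry, and the receptor chain Cd3g (0.47, SE 0.164). The germinal centre list had 3 of 10 higher, led by Mybl1 (0.51, SE 0.085), and 1 lower, Bcl6 (-0.33, SE 0.091). Plasma cell genes had 2 of 9 higher, the syndecan Sdc1 (0.56, SE 0.104), which is abundant in epithelium, and Fkbp11 (0.15, SE 0.047). The remaining immune lists had few calls in the Top2a ranking. There, 1 of 12 natural killer genes and 1 of 8 granulocyte genes rose, and 3 of 10 dendritic cell genes rose and 1 fell. None of 8 lymph node stroma genes or 7 erythroid genes was called. At an unadjusted p under 0.05, 9665 probe sets differed over the whole array, so a count of 0 in a short list is a count at the adjusted threshold only.

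Interferon response genes rose with Top2a in 7 of 13 cases and none fell, with a median of 0.34. Zbp1, a sensor of foreign nucleic acid, ranged from 6.50 to 8.99 (median 7.34) in the high pads and from 6.38 to 7.76 (median 6.87) in the low pads, with 10 high pads above every low pad. It rose by 0.47 (SE 0.104, limma adjusted p = 4.73e-04), the interferon-induced protease Usp18 by 0.47 (SE 0.129) and the antiviral GTPase Mx1 by 0.39 (SE 0.111). Fibroblast and matrix genes had 5 of 15 members higher and a median of 0.04, among them tenascin, Tnc (0.47, SE 0.114), and fibronectin, Fn1 (0.31, SE 0.084). Of 13 adipocyte progenitor genes 2 rose, Icam1 (0.32) and Anxa3 (0.38), and 2 fell, the factors Zfp423 (-0.28) and Ebf2 (-0.28). In a list of 13 these counts are near the 13.5% and 10.4% of all genes, and the list median was 0.08.

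**Figure D3:**
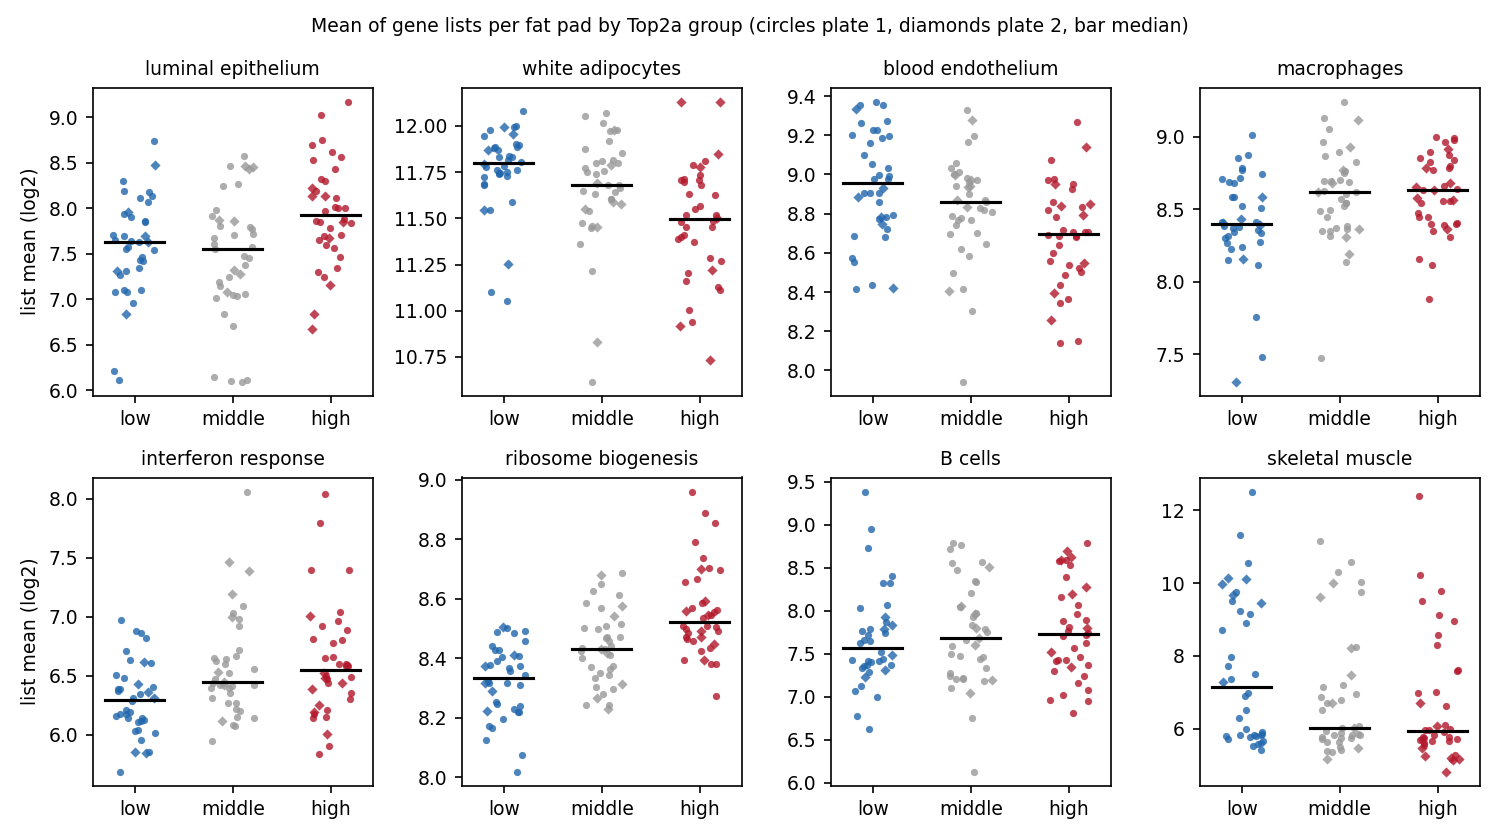
Mean log2 value of 8 gene lists (vertical axes) in each pad by Top2a group, with circles for plate 1, diamonds for plate 2 and a bar at the median. Ribosome biogenesis rises from a median of 8.33 to 8.52 and white adipocytes fall from 11.80 to 11.49, while the B cell list spans about the same range in each group.

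The order of the pads by Top2a overlapped in part with their order by luminal epithelium mean. Among the 38 pads with the highest luminal epithelium mean, 19 were Top2a-high, 9 middle and 10 Top2a-low, and among the 38 with the lowest, 6, 18 and 14. The middle pads had a luminal median of 7.55 and the low pads one of 7.63, so the luminal step lay between the middle and the high pads (7.92). For white adipocytes the 38 highest pads were 4 high, 14 middle and 20 low, and for ribosome biogenesis they were 23, 13 and 2, so these lists stepped down or up through all the groups. A slope on Top2a fitted within the 39 middle pads alone called 13 genes higher and 10 lower (0.0693% and 0.0533%), with 0 mitosis genes and 3 replication genes among them.

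Cell content was then entered into the fit as a covariate. With the luminal mean added, the mitosis list kept 35 of 35 calls and a median of 0.82, the white adipocyte list had 8 of 21 members lower (median -0.18), and 10.6% of all genes were higher and 6.58% lower. The luminal list itself then had 1 member higher and 1 lower by construction. With the white adipocyte mean added, 8.37% of genes were higher and 4.11% lower, and the luminal list had no call and a median of 0.13. The blood endothelium list went from 10 to 2 calls (median -0.11) and oxidative phosphorylation from 13 to 1. The macrophage list had 8 of 16 members higher and the interferon list 7 of 13, with medians of 0.28 and 0.34. The lymphoid mean, taken over B and T cell genes, gave 14.1% of genes higher and 10.3% lower, and 15 members of the luminal list were called with it against 12 without.

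With the luminal, lymphoid and white adipocyte means together, 9.29% of genes were higher and 4.7% lower. Of the 2533 genes higher without them 1338 were called higher again, and of the 1952 lower genes 492 were called lower again. Mitosis had 35 of 35 members higher (median 0.80), ribosome biogenesis 7 of 15 (0.11), macrophages 8 of 16 (0.29) and interferon response 8 of 13 (0.36). Ccnd1 rose by 0.46 (limma adjusted p = 5.05e-06), C1qc by 0.43 (limma adjusted p = 0.0059) and Zbp1 by 0.36 (limma adjusted p = 0.0195) in that fit. Csn1s1 differed by 1.13 and no longer passed (limma adjusted p = 0.132). Slc2a4 differed by -0.29 (limma adjusted p = 0.0067). It belongs to the white adipocyte list, whose mean was in the fit, so this value is its departure from that list. List means are measured on the same arrays as the genes and stand for RNA content, so this fit does not separate cell number from expression.

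**Figure D4:**
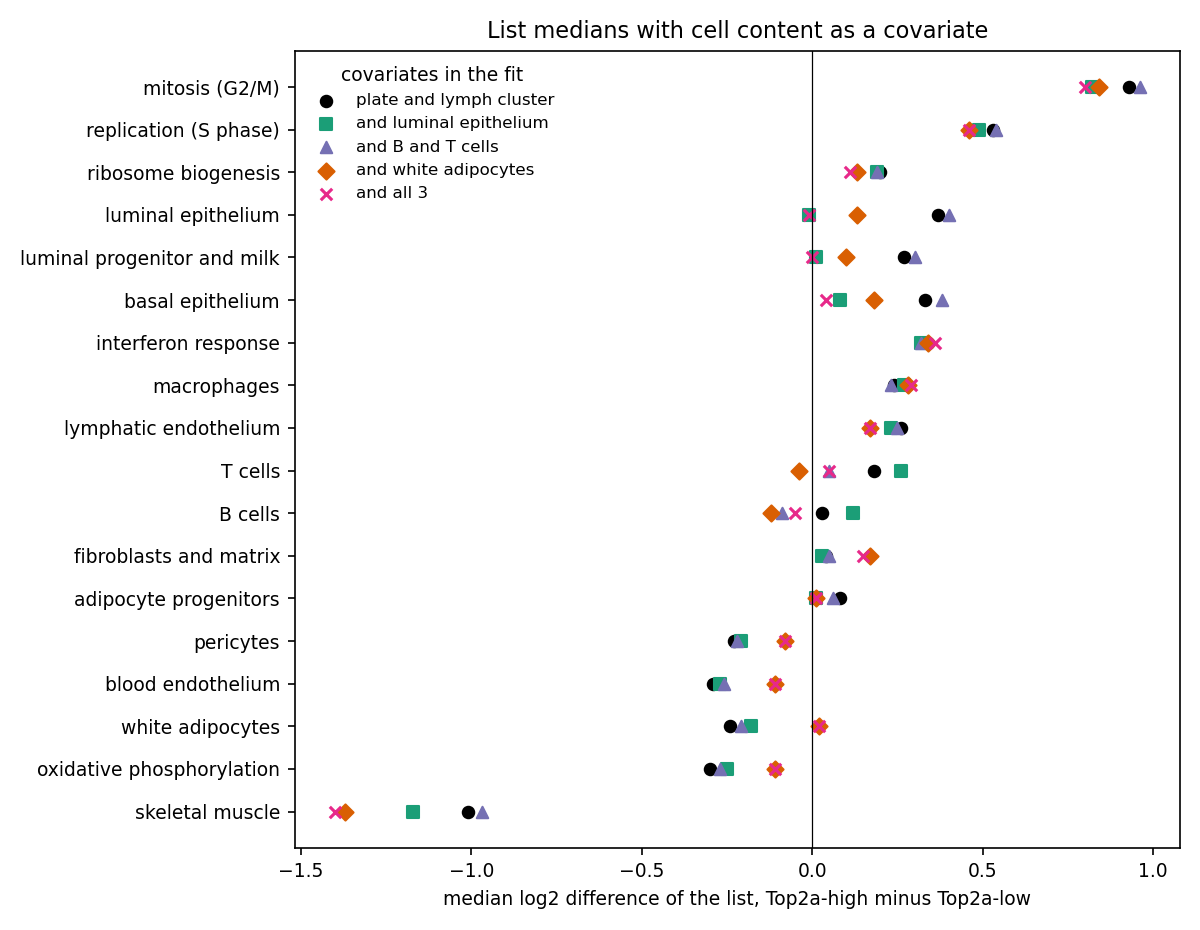
Median log2 difference between Top2a-high and Top2a-low pads (horizontal axis) of 18 gene lists with no cell content covariate and with the luminal, lymphoid or white adipocyte mean or all 3 added. Mitosis stays between 0.80 and 0.96, and the macrophage and interferon medians stay near 0.3. The luminal, endothelial and adipocyte medians move towards 0 when the adipocyte mean is added, the adipocyte median by construction.

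Skeletal muscle genes had a median of -1.01, but 1 of 18 was called, Acta1 (-1.13, SE 0.422), a smaller share than the 10.4% of all genes called lower. That share depended on the covariates. With the white adipocyte mean 6 of 18 were lower (median -1.37), against 4.11% of all genes. With the luminal, lymphoid and white adipocyte means together 8 of 18 were lower (median -1.40), against 4.7%. With the lymphoid mean alone 0 were called. The part of muscle RNA in the other results was not tested beyond the following values. Other large falls were also genes of muscle or of fat: Hspb6 (-1.05, SE 0.240), a small heat shock protein, Asb12 (-1.01, SE 0.212), Myl1 (-0.75, SE 0.187), a myosin light chain, and Timp4 (-0.85, SE 0.178), a protease inhibitor of adipose tissue. With the muscle mean as covariate, Hspb6 fell by 0.58 and Asb12 by 0.68, the macrophage list had 3 of 16 members higher (median 0.18), and 12% of genes were higher and 10.8% lower. With the muscle mean and the other 3 content means together, 5.4% of genes were higher and 1.89% lower. In that fit 35 of 35 mitosis, 5 of 15 ribosome biogenesis, 4 of 13 interferon and 2 of 16 macrophage genes were higher. No white adipocyte gene was called, but the mean of that list was itself in the fit.

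S100b had the largest fall among called genes, leaving out the kinds of gene excluded under the processing below. Its levels were spread widely among these backcross mice. It ranged from 4.40 to 10.55 (median 8.17) in the high pads and from 4.68 to 10.40 (median 9.38) in the low pads, and 16 high against 7 low pads lay below 7. The fall was 1.19 by the fit (SE 0.407, limma adjusted p = 0.0261), and with the white adipocyte mean as covariate the difference was -0.22 (limma adjusted p = 0.775). Of 5 Schwann cell genes measured, S100b fell and Egr2, which is also induced in other cell types, rose (0.56, SE 0.159), and the remaining 3 were not called. Within plate 1 the list had 2 members lower and 1 higher, and under the ranking by Mki67 3 lower and 2 higher.

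Within the plates, mitosis had a median of 0.96 on plate 1 (30 against 32 pads) and 0.82 on plate 2 (8 against 6 pads), and the macrophage medians were 0.17 with 2 of 16 members called and 0.40 with none. On plate 1 11.8% of genes were higher and 10.9% lower, and on plate 2 0.916% and 1.36%. The luminal list was higher on plate 1 only by these medians, at 0.46 with 16 of 25 members called, against -0.05 with no call on plate 2. White adipocytes stood at -0.27 with 19 of 21 members lower and -0.07 with no call, interferon response at 0.36 with 7 of 13 higher and 0.18 with no call, and muscle at -0.33 with no call and -4.26 with all 18 members lower. On plate 2 the muscle mean ranged from 4.82 to 6.72 in the high pads and from 7.28 to 10.14 in the low pads, without overlap. Muscle content and Top2a group cannot be told apart on that plate.

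A test of the difference between plates called 308 of 28201 probe sets (1.09%), and no gene named in the preceding paragraphs was among them. Other members of the lists were, namely 4 of 18 skeletal muscle genes, 2 of 17 G1 cyclin and E2F genes, 1 of 19 brakes and 1 of 16 macrophage genes. The genes with the smallest p in this test included the actin regulators Cap1 and Cfl1, which bind and sever actin filaments. They were chosen after their values were seen. Cap1 ranged from 10.57 to 11.32 in the high and 10.46 to 11.34 in the low pads of plate 1, and from 10.99 to 11.64 in the high and 9.88 to 10.97 in the low pads of plate 2, where the groups did not overlap. Cfl1 differed by 0.01 on plate 1 and 0.58 on plate 2 (interaction 0.64, SE 0.114, limma adjusted p = 0.0014). The count rested on single pads of plate 2: leaving out each of the 14 in turn gave between 39 and 1189 probe sets, the lowest without a Top2a-low pad with a Top2a value of 6.04 and the highest without one at 6.46. Without any of 5 others (a Top2a-low pad at 6.45 or 6.15, or a Top2a-high pad at 7.70, 7.64 or 7.45) the count fell to between 169 and 201.

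Within lymph cluster 1 (13 against 18 pads) 2.13% of genes were higher and 0.346% lower, and within lymph cluster 2 (22 against 16 pads) 8.85% and 5.68%. The luminal medians were 0.47 with 0 of 25 members called and 0.40 with 5 called. The mitosis medians were 1.01 and 0.91, with 34 of 35 members called in each cluster. White adipocyte genes had medians of -0.08 (1 of 21 lower) and -0.33 (17 lower), and blood endothelium -0.12 (0 of 15 lower) and -0.39 (9 lower). B cells had medians of -0.21 and 0.18 and T cells -0.08 and 0.38. These contrasts were not shown to differ, because limma's test of the difference between the clusters called 0 probe sets at the adjusted threshold, with 1538 at an unadjusted p under 0.05.

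**Figure D5:**
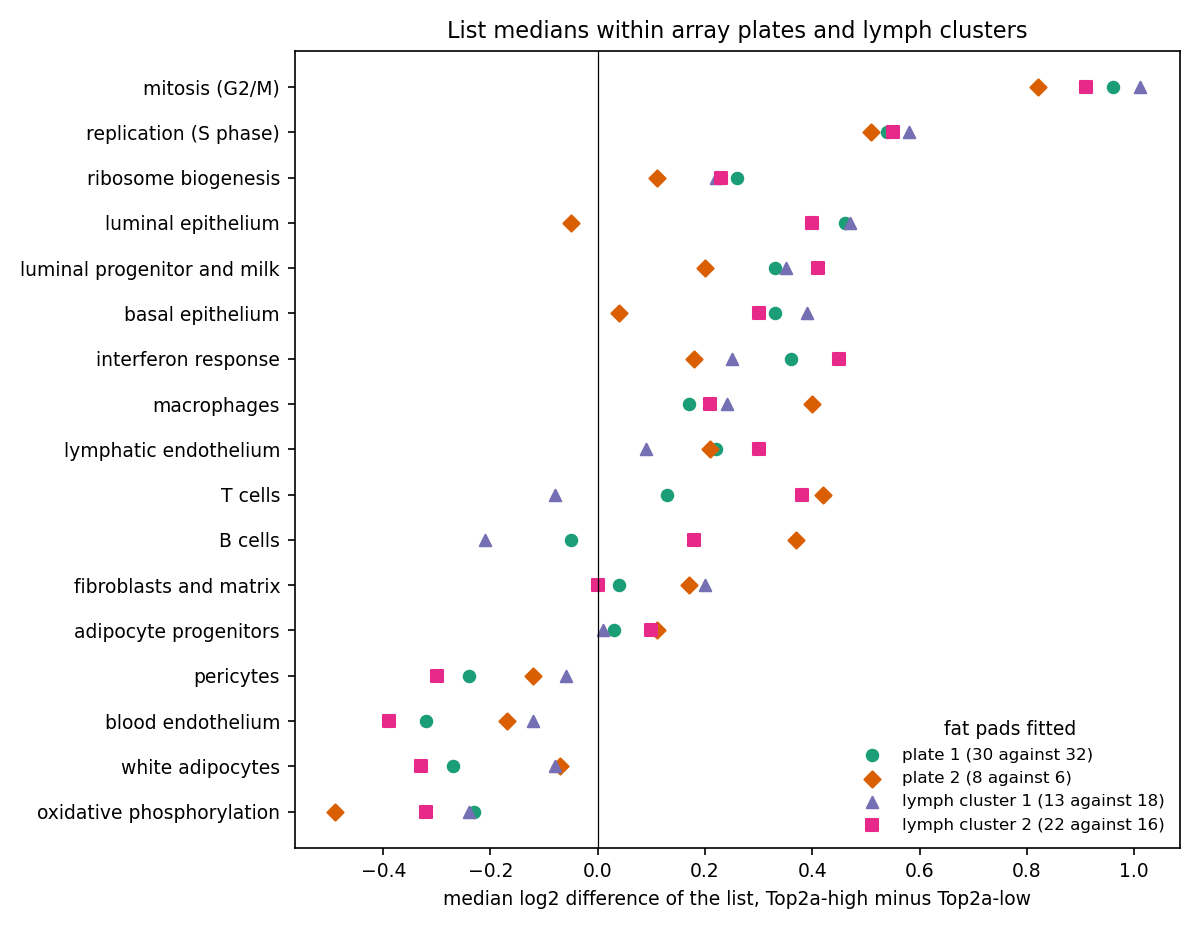
Median log2 difference of 17 gene lists (horizontal axis) fitted within plate 1, plate 2, lymph cluster 1 and lymph cluster 2. Skeletal muscle, at -0.33 on plate 1 and -4.26 on plate 2, is left out for scale. The mitosis medians lie between 0.82 and 1.01, while luminal epithelium lies at 0.46, 0.47 and 0.40 but at -0.05 on plate 2.

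Because these mice carry Mus spretus alleles in long shared stretches, the neighbours of Top2a on chromosome 11 were examined. Of the 20 nearest measured genes in RefSeq order, 10 on each side, 3 were higher and 2 lower. These shares are close to the 13.5% and 10.4% of all genes, so the counts do not set the neighbours apart. Cdc6, a replication licensing factor, rose by 0.43 (limma adjusted p = 2.40e-06), the chromatin remodelling subunit Smarce1 by 0.28 (limma adjusted p = 2.06e-07) and the focal adhesion protein Tns4 by 0.37 (limma adjusted p = 0.0160). Psmd3, a proteasome subunit, and Krt222 fell by 0.12 and 0.14. When the pads were ranked by Mki67 on chromosome 7, Cdc6 rose by 0.41 and Smarce1 by 0.22. In that ranking 2 of the 20 genes were higher and 1 lower, beside 12.7% and 9.5% of all genes.

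Ranking by Mki67 in place of Top2a called 12.7% of genes higher and 9.5% lower. The luminal list then had 14 of 25 members higher (median 0.49), macrophages 9 of 16 (0.27), interferon response 11 of 13 (0.42) and ribosome biogenesis 11 of 15 (0.20), and white adipocytes 15 of 21 lower (-0.24). Mast cell genes had no call under that ranking. Some immune lists had more calls than in the Top2a ranking. Natural killer genes had 6 of 12 members higher (median 0.28), dendritic cell genes 5 of 10 (0.27) and lymph node stroma genes 4 of 8 (0.20). T cell genes had 4 of 18 higher, and B cell genes none higher and 1 lower of 17. The calls of these lists thus depended on which gene ranked the pads. Since 33 and 31 pads are shared between the 2 rankings, this is not an independent repeat.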

How the data were processed

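The authors deposited log2 values of 115 arrays, and the submitters' processing notes name robust multi-array averaging (RMA) and oligo, without versions. The table held 28204 probe sets, of which 21141 had 1 symbol in the platform annotation, 1881 several and 5182 none. Symbols were updated through RefSeq (GRCm38.p6), where 21111 matched, leaving 18772 genes. A gene was read by its single-symbol probe set with the highest mean. The arrays carry no read depth, and their number limits the precision.

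Tests used limma 3.58.1 in R 4.3.3, with terms for Top2a group, array plate and lymph cluster. Its moderated p-values were adjusted by Benjamini-Hochberg over 28201 probe sets, leaving out those of Top2a and keeping dim ones. A call was an adjusted p under 0.05. The 37 lists held 580 genes, 529 of them measured. List values are counts and medians, with no set test. The groups and lists were chosen with earlier results of these data known. Genes named were Top2a, Mki67, the 12 largest rises and falls, up to 4 members per list with the smallest p, 10 genes with the smallest p outside the replication and mitosis lists and the 8 largest rises with 3 content means. Predicted, RIKEN, receptor, histone and small RNA genes were left out of the largest rises. In simulated data with the same design, 92.0% of changes of 0.5 and 65.0% of changes of 0.25 were recovered, and 13 of 170 calls were false. The simulation changed 200 of 28204 probe sets and drew noise independently for each. Its rates therefore do not cover genes that vary together across pads, or a comparison with as many calls as this one. Replicates were numbered in accession order and pair no samples. Figures were drawn with matplotlib 3.10.9.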

Additional observations from a re-analysis of the deposited data

Results flagged for a closer look

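Within plate 2 the groups are small (8 Top2a-high and 6 Top2a-low pads). There, 10 of 76 sets of values held 1 pad far from the others by Dixon's criterion. Chance alone meets it in about 1 of 20 independent sets. That rate does not apply here, because the sets share the same pads and the pads were chosen by Top2a. In the Top2a-high pads, the highest Mki67 value was 9.20 with the next at 8.17. The highest list means among these pads were 7.30 for replication (next 7.09), 7.30 for mitosis (next 6.75), 7.66 for plasma cells (next 7.18), 7.96 for immediate early genes (next 7.58) and 8.71 for growth factors and receptors (next 8.36). The lowest mean of the adipose expansion list was 7.89, with the next at 8.91. In the Top2a-low pads, the lowest means were 7.31 for macrophages (next 8.16), 7.28 for skeletal muscle (next 9.45) and 7.85 for adipose expansion (next 9.04).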

How the results depend on the processing

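For 90 named genes, 1959 of the refits made on other settings kept the direction and the side of the threshold, 428 kept the direction without passing, 1 newly passed and 19 turned. Scaling, moderation, array weights, ranks and other covariates of plate or cluster turned no named gene. The ranks setting has no list medians on the log2 scale. Probe sets called higher and lower, 3440 and 2681, became 558 and 93 in lymph cluster 1 alone, 2188 and 1364 in cluster 2 alone and 251 and 343 on plate 2 alone, where fewer pads were fitted. They were 2058 and 1129 with the white adipocyte mean, 2267 and 1270 with all 3 content means and 1341 and 613 with the muscle mean as well, an alternative chosen after seeing the data, as were the muscle mean alone and the fits without single arrays. Lower calls were 1682 with the luminal mean. The plate difference had 659 probe sets as a slope over all 115 pads against 308, and between 39 and 1189 without single plate 2 pads.

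A slope within the 39 middle pads, multiplied by 1.62 to match the group difference, called 17 and 12. Its list medians were 0.10 for brakes, 0.70 for hormone-sensing luminal, -0.23 for basal, 1.78 for B cells, -0.26 for plasma cells, 1.30 for T cells, 0.79 for cytotoxic cells, 0.83 for dendritic cells, -0.14 for macrophages, -0.65 for mast cells, -0.12 for erythroid cells, 1.19 for lymph node stroma, -0.98 for blood endothelium, -0.73 for pericytes, -0.03 for lymphatic endothelium, -0.81 for fibroblasts, -0.33 for adipocyte progenitors, -1.04 for white adipocytes, -0.80 for lipid synthesis, -3.23 for brown adipocytes, -0.75 for Schwann cells, -1.72 for adipose expansion, 0.50 for ribosome biogenesis and -1.34 for oxidative phosphorylation. In that slope the sign turned for Csn1s1 (-1.23), Csn1s2a (-2.16), Csn2 (-0.83), Rab25 (-0.12), Sdc1 (-0.47), Fkbp11 (-0.26), C1qc (-0.13), Mcpt4 (-1.77), Cpa3 (-1.69), Retnlg (-0.38), Pdpn (-0.02), Reln (-0.14), Tnc (-0.19), Fn1 (-0.43), Anxa3 (-0.34) and Igfbp2 (-0.03). The middle pads span a narrow range of Top2a, from 6.75 to 7.35, so the multiplied slope reaches beyond their values. No member of the lists given for this slope was called in it, and the cause was not tested. On plate 2 alone the sign turned for Ebf1 (0.05), Cd9 (-0.33) and Igfbp2 (-0.00), and the muscle median was -4.26. Other list medians that moved were mitosis with the 23 highest and lowest pads (1.29), and plasma cells (0.34) and mast cells (0.54) without dim probe sets. No paired analysis was possible because the replicate numbers only follow accession order and the same mouse is in 1 group only.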

Other observations

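Some genes outside the lists also went with Top2a and were chosen after their values were seen. Timp1, an inhibitor of matrix proteases, ranged from 5.74 to 8.84 (median 7.13) in the Top2a-high pads and from 5.55 to 7.75 (median 6.11) in the Top2a-low pads, and 35 of 38 high pads exceeded the low median. It was 0.82 higher (SE 0.133, limma adjusted p = 1.96e-06) and 0.85 higher with the luminal, lymphoid and white adipocyte means as covariates. Vcan, the matrix proteoglycan versican, had 17 of 38 high pads above every low pad and was 0.79 higher (SE 0.130), and 0.80 higher with those means. Crabp1, a carrier of retinoic acid, was 1.20 higher (SE 0.180), with medians of 8.11 and 6.96 and 20 high pads above every low pad. Ms4a6d, a membrane protein of macrophages, was 0.60 higher (SE 0.133) and 0.74 higher with the means, and the chemokine Ccl8 was 0.60 higher (SE 0.205).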
